A study of Rattus norvegicus with 5 samples.

Results

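Retinoic acid is a hormone made from vitamin A. The 8 genes described here encode its synthesis enzyme Aldh1a2, the carriers Rbp4, Crabp1 and Crabp2, the retinoic acid receptor Rara and the retinoid X receptors Rxra, Rxrb and Rxrg. They were represented by all probe sets whose single gene symbol in the platform annotation was one of the 8, which gave 14 of the 8740 probe sets that are not array controls, or 8 of 4736 genes. Of these 14, 10 passed the filter on mean signal over the 5 arrays and were tested among 5244 probe sets. The 4 others were 1 each of Rbp4, Rara and Rxrg and the single Rxra probe set, so that Rxra was the only one of the 8 genes with no tested probe set.

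Retinol travels in blood bound to Rbp4, is oxidised to retinaldehyde inside cells and is turned into retinoic acid by aldehyde dehydrogenases such as Aldh1a2. Crabp2 hands retinoic acid to nuclear receptors and Crabp1 holds it in the cytosol, while a retinoic acid receptor and a retinoid X receptor bind DNA as a pair and switch genes on when the hormone is present. In the brain around birth the meninges are a main site of Aldh1a2, and Rara in hippocampal neurons takes part in the scaling of synapses.

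The study measured total RNA of rat hippocampus labelled P5 on 5 single-colour oligonucleotide arrays, 1 value per probe set and array, as intensities on a linear scale. Per the labels, 2 arrays were fetal alcohol (FAE), 1 was isocaloric diet and 2 were control. The isocaloric diet is taken here as a feeding control without alcohol, and the control group is called control diet. The sample titles do not say whether pups or their dams were fed a diet. The labels used here give no strain, sex, alcohol dose or time of exposure, and leave unsaid whether the RNA of a group was taken from different rats or pooled, so p-values measure only the spread between these arrays, which may be technical. The single isocaloric array has no replicate check. Comparisons were fitted with limma on log2(intensity + 10.6), with an offset equal to the 20th percentile of the values, and Benjamini-Hochberg adjustment ran over all 5244 tested probe sets with a threshold of 0.05. Differences are on this log2 scale, which understates the change of dim probe sets, and their errors are standard errors (SE) of the fit.

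The arrays had 2% trimmed means that were nearly equal, between 150.19 and 150.22, as after scaling to a common target. Of 14 neuron markers, 11 were on the array and 10 passed the filter on mean signal; most are general neuron genes, which do not tell the hippocampus from other brain regions. Neurod2, a transcription factor of forebrain neurons, measured 83.8 and 110 after fetal alcohol, 88.0 under the isocaloric diet and 185 and 150 under control diet. Over the 10 tested neuron markers, 6 had higher and 4 lower signal after fetal alcohol than under control diet, so Neurod2 does not stand for the list. Between isocaloric and control diet 2 of the 10 were higher and 8 lower. The 9 probe sets of spiked hybridisation controls, which carry no tissue RNA, were uneven. They summed to 5205 and 7125 after fetal alcohol, 4912 under the isocaloric diet and 8976 and 10528 under control diet. In 8 of these 9 both control diet arrays lay above the other 3. For beta-actin the 3′ signal over the 5′ signal, a measure of RNA integrity, was between 1.12 and 1.26 on the fetal alcohol and isocaloric arrays and 1.32 and 1.34 on the control diet arrays, while for GAPDH it lay between 0.877 and 0.984 over all 5 arrays.

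Promoter windows of the members are shown for the genes whose signals set the account that follows: Aldh1a2 and Crabp2, the synthesis enzyme and the carrier with lower signal on fetal alcohol arrays, and Rara, the receptor with the largest differences. Each is the 250 bases before the RefSeq transcription start in build GRCr8, read along the gene's own strand, which is the plus strand for all of them. The Aldh1a2 window is chr8:80758391-80758640 and the Crabp2 window chr2:175714612-175714861, each directly upstream of its gene. The Rara window is chr10:84411217-84411466 and lies inside the annotated span of the gene, before an internal start. Capitals mark matches to the searched motifs.
Aldh1a2: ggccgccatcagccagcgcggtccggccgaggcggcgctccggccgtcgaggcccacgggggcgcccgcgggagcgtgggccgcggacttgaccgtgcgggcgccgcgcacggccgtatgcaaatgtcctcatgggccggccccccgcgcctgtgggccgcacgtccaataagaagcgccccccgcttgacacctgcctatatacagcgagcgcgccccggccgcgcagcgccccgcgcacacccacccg
Crabp2: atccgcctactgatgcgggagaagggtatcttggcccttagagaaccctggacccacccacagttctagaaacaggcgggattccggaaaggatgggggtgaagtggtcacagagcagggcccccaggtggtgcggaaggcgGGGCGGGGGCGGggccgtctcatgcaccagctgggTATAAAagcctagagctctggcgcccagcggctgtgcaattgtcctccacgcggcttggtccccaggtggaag
Rara: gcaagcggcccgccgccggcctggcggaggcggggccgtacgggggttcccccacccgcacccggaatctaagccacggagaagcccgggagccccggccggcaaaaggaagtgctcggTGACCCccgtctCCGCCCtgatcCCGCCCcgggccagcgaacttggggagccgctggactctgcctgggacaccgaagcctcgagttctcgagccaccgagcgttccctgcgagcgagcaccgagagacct

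The motifs searched on both strands were the 6-base core site of retinoid and related receptors in 4 spellings (AGGTCA or GGGTCA, with AGTTCA or GGTTCA as looser forms), its direct repeats spaced by 1, 2 or 5 bases (which overlap core sites by construction), the GC box GGGCGG and the TATA box TATAAA. No matches of different motifs overlapped in the printed windows. All 8 genes had a window in the RefSeq table, and 1 of 8, Rara, held a core site: TGACCC, the reverse complement of GGGTCA, starting at position -131 counted back from the start. Of 33469 windows of the same length, 39.1% held a core site. A direct repeat was in 0 of 8 member windows and in 0.651% of all windows. The GC box was in 6 of 8 member windows against 30.5% of all, including positions -108 and -102 in Crabp2 and -119 and -108 in Rara. The TATA box was in 2 of 8, Rbp4 and Crabp2, where it began at -73, against 12.9% of all. Bases G and C made up 77.2% of the Aldh1a2 window, 63.2% of the Crabp2 window and 72.4% of the Rara window, beside a median of 51.2% over all windows. These matches describe letters in the windows and not binding.

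Against control diet, most signals of these genes were lower on the fetal alcohol arrays, but no single difference passed the threshold. Of the 10 tested probe sets, 9 had a negative log2 difference, where 49.5% of all tested probe sets did, and the median was -0.45 beside 0.005 over all 5244. In 7 of 10 both fetal alcohol arrays lay below both control diet arrays, which 17.7% of all tested probe sets did; 0 of 10 lay above, against 16.8%. The adjusted p was under the threshold for 0 of 10, as for 0% of all, and an unadjusted p under 0.05 with lower signal was found for 3 of 10, beside 3.95% of all; 0 of 10 had one with higher signal, against 1.66%. These 3 belong to 2 genes, Aldh1a2 and Rara, and the 7 without overlap belong to Aldh1a2, Crabp2, Rara, Rxrb and Rxrg. Probe sets of 1 gene are not independent. The members were chosen with earlier results of these data known, so the counts beside all probe sets are a description and not a test. With 2 arrays against 2, an exact permutation test of a single value cannot go below a 2-sided p of 0.333.

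**Figure D1:**
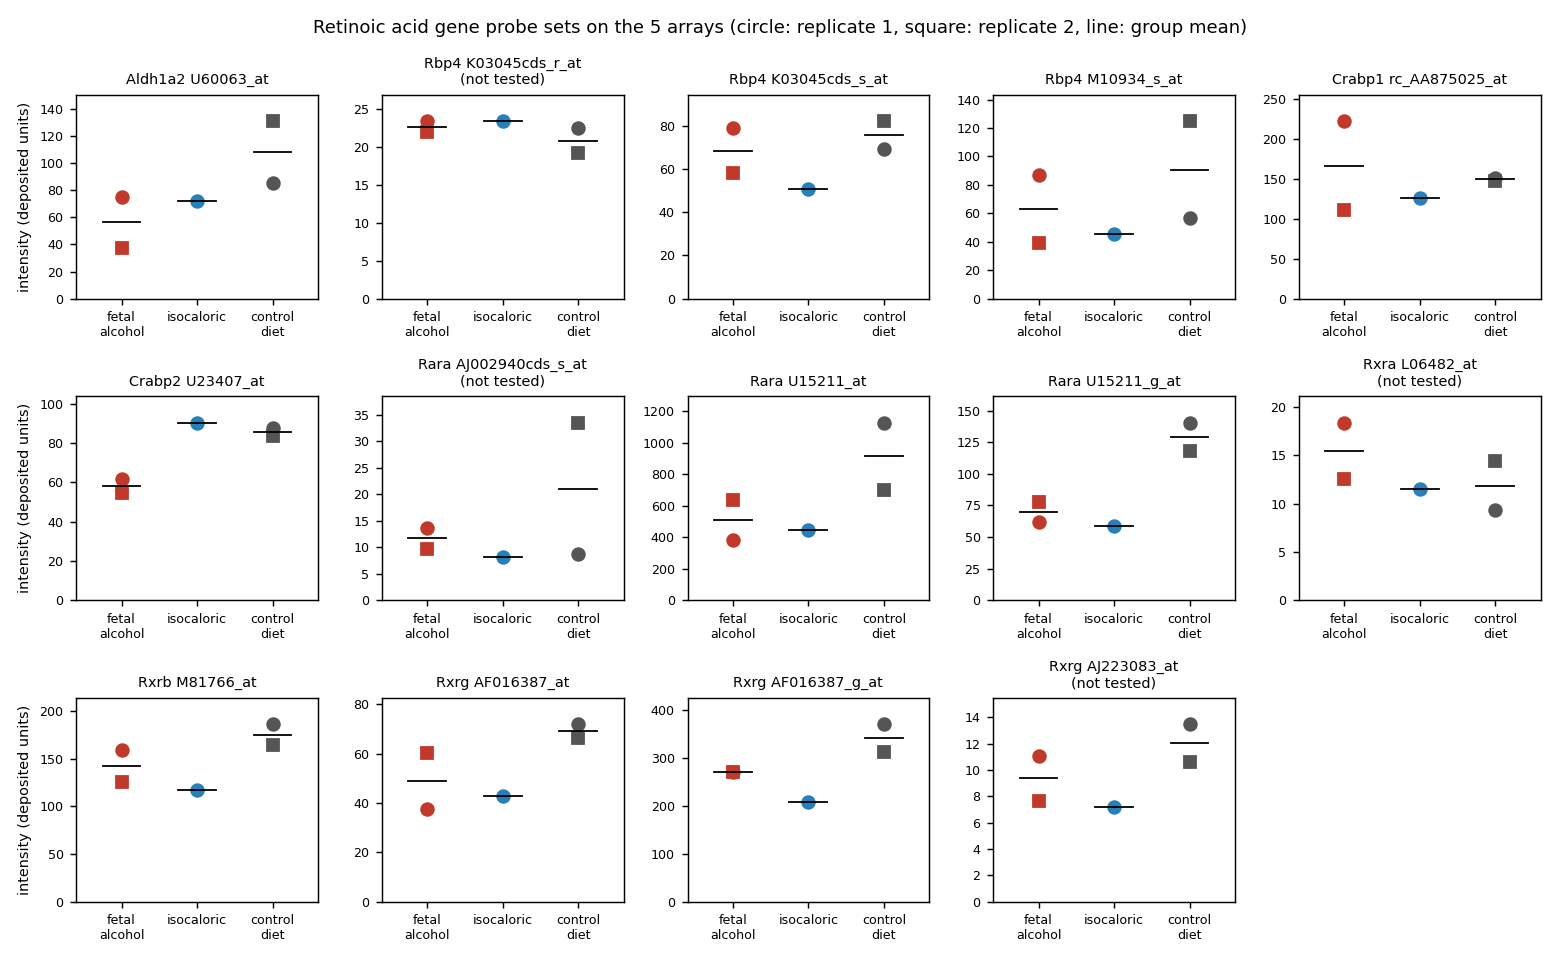
Intensity of each of the 14 probe sets (vertical axes, deposited units, starting at 0) on the fetal alcohol, isocaloric and control diet arrays; circles are replicate 1, squares replicate 2 and lines group means. Rara U15211_g_at was 62.1 and 78.0 after fetal alcohol and 59.0 under the isocaloric diet, below 140 and 118 under control diet, while Crabp2 was low on the fetal alcohol arrays alone.

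For synthesis, Aldh1a2 (probe set U60063_at) measured 75.1 and 37.7 after fetal alcohol, 72.5 under the isocaloric diet and 85.2 and 131 under control diet. The 3 arrays from fetal alcohol and isocaloric rats thus lay below both control diet arrays, and the lowest value was that of fetal alcohol array 2. The log2 difference between fetal alcohol and control diet was -0.86 ± 0.33 (SE, limma adjusted p = 0.820), with a 95% interval from -1.61 to -0.10. It was -1.27 without fetal alcohol array 1 and -0.44 without fetal alcohol array 2, and -1.14 without control diet array 1 and -0.58 without control diet array 2. The adjusted p over the alternatives was between 0.115 and 0.9997. Against the isocaloric array the fetal alcohol arrays straddled its value, with a difference of -0.37 ± 0.40 (adjusted p = 0.998). Isocaloric minus control diet was -0.49 ± 0.40 (adjusted p = 0.880).

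Aldh1a2 is a gene of the meninges, the membranes that cover the hippocampus, and markers of that tissue are given beside it. The 17 meninges and connective tissue markers, 16 of them on the array, summed to 8772 and 5509 after fetal alcohol, 6636 under the isocaloric diet and 9117 and 10652 under control diet. The sum had the same order of the 5 arrays as Aldh1a2, but few single markers split as Aldh1a2 did. In 1 of the 13 tested markers both control diet arrays lay above all 3 other arrays, beside 12.6% of all tested probe sets. In 2 of the 13 both fetal alcohol arrays lay below both control diet arrays, beside 17.7% of all. All 13 tested markers had a negative fetal alcohol minus control diet difference, with a median of -0.40, and 1 marker lay under the offset on all arrays; no marker was at 0. Choroid plexus markers, 8 on the array, summed to 1712 and 419 after fetal alcohol, 6645 under the isocaloric diet and 6891 and 6438 under control diet. The part of these tissues in the Aldh1a2 values was not tested, and in bulk RNA fewer cells of a type cannot be told apart from less RNA per cell.

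Among the carriers, Crabp2 (U23407_at) was the tested probe set in which both fetal alcohol arrays lay below all 3 arrays from rats without alcohol. It measured 61.7 and 54.7 after fetal alcohol, 90.3 under the isocaloric diet and 87.5 and 83.5 under control diet. The 3 alcohol-free values lay close together and the groups did not overlap. The difference was -0.48 ± 0.22 against control diet (SE, limma adjusted p = 0.909; 95% interval from -0.995 to 0.03) and -0.55 ± 0.27 against the isocaloric array (adjusted p = 0.998). Against control diet it kept its sign in 12 of 12 alternative settings, between -0.56 and -0.41. By this count, chosen after the values were seen, 1 of 10 tested member probe sets had both fetal alcohol arrays at the bottom, beside 8.30% of all tested probe sets, and 0 of 10 had both at the top, beside 8.45%, shares near the background. Choroid plexus markers had the same split: in 4 of the 6 tested both fetal alcohol arrays lay below the other 3, and the sum of the 8 on the array was 1712 and 419 after fetal alcohol, 6645 under the isocaloric diet and 6891 and 6438 under control diet. Among the 13 tested meninges markers 1 had that split. The part of either tissue in the Crabp2 values was not tested.

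Crabp1 (rc_AA875025_at) measured 222 and 111 after fetal alcohol, 126 under the isocaloric diet and 151 and 148 under control diet. The fetal alcohol arrays were its highest and lowest value, and their difference from control diet was 0.07 ± 0.32 (adjusted p = 0.997; 95% interval from -0.66 to 0.80). Leaving out fetal alcohol array 1 gave -0.40 and leaving out array 2 gave 0.54, so the direction rested on 1 array.

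Rbp4, the plasma carrier of retinol, is made in the liver and also in the choroid plexus, and had 3 probe sets. M10934_s_at measured 87.0 and 39.1 after fetal alcohol, 45.2 under the isocaloric diet and 56.9 and 125 under control diet. K03045cds_s_at measured 78.7 and 58.2 after fetal alcohol, 50.8 under the isocaloric diet and 69.3 and 82.0 under control diet. In both, control diet array 2 was highest, fetal alcohol array 1 next and control diet array 1 below them, so the fetal alcohol and control diet arrays overlapped. The differences were -0.46 ± 0.41 (adjusted p = 0.965) and -0.13 ± 0.25 (adjusted p = 0.994). Without fetal alcohol array 2 they were 0.03 and 0.05, and without control diet array 2 the first was 0.05. The isocaloric array lay below both control diet arrays in these 2 probe sets, with differences of -0.78 ± 0.50 (adjusted p = 0.853) and -0.49 ± 0.30 (adjusted p = 0.852). K03045cds_r_at, untested, ranged from 19.1 to 23.3 over the 5 arrays. Ttr, which binds Rbp4 in plasma and cerebrospinal fluid and is the main choroid plexus transcript, measured 1276 and 19.3 after fetal alcohol, 5745 under the isocaloric diet and 6228 and 5728 under control diet at its brighter probe set. Its difference from control diet was -4.93 ± 1.35 (adjusted p = 0.582). In both tested Rbp4 probe sets fetal alcohol array 1 was above the isocaloric array, while in Ttr it was below. Rbp4 M10934_s_at was lowest on fetal alcohol array 2, as Ttr was, and K03045cds_s_at was lowest on the isocaloric array. The part of choroid plexus tissue in the Rbp4 values was not tested.

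**Figure D2:**
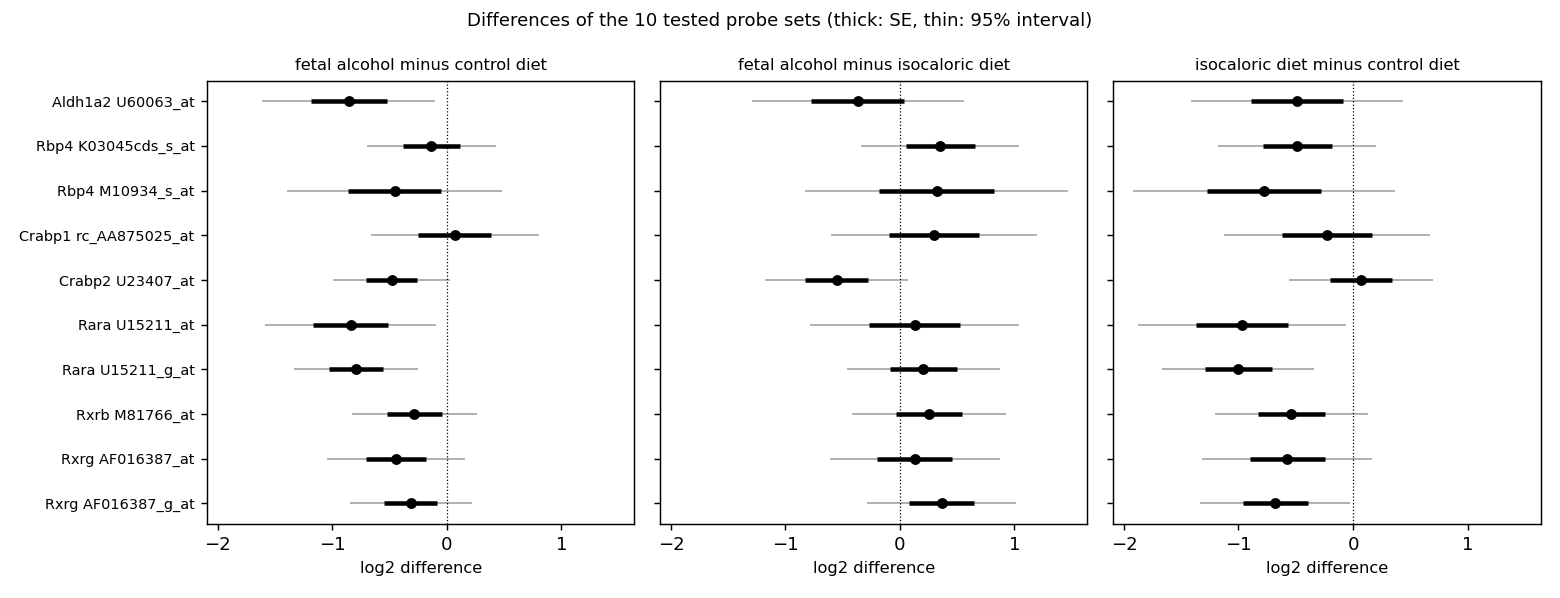
Log2 difference (horizontal axes) of the 10 tested probe sets in the 3 comparisons; points are estimates, thick bars the SE and thin bars the 95% interval. Against control diet 9 of 10 points lie left of 0 for both fetal alcohol and isocaloric diet, and between fetal alcohol and isocaloric diet 8 of 10 lie right of 0.

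Rara had the largest receptor differences, and its signal was low on the isocaloric array as well. U15211_at measured 379 and 635 after fetal alcohol, 448 under the isocaloric diet and 1125 and 700 under control diet. U15211_g_at, built from the same deposited sequence, measured 62.1 and 78.0 after fetal alcohol, 59.0 under the isocaloric diet and 140 and 118 under control diet. In both, all 3 fetal alcohol and isocaloric values lay below both control diet values.

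Against control diet, fetal alcohol gave -0.84 ± 0.32 at U15211_at (limma adjusted p = 0.820) and -0.80 ± 0.24 at U15211_g_at (adjusted p = 0.641). The first was -0.48 without fetal alcohol array 1 and -0.50 without control diet array 1, and -1.20 without fetal alcohol array 2. The second stayed between -0.94 and -0.65 with 1 array left out, and its adjusted p over the alternatives was between 0.124 and 0.9997. Isocaloric minus control diet, which shares the control arrays with the first comparison, gave -0.97 ± 0.40 (adjusted p = 0.683) and -1.001 ± 0.29 (adjusted p = 0.555). Fetal alcohol minus isocaloric diet was 0.13 ± 0.40 and 0.21 ± 0.29 (adjusted p = 0.998 each), with 95% intervals from -0.78 to 1.04 and from -0.46 to 0.87, which do not show that the 2 groups were alike. The third probe set, AJ002940cds_s_at, was dim and untested: it measured 13.7 and 9.76 after fetal alcohol, 8.21 under the isocaloric diet and 8.64 and 33.5 under control diet. Its groups overlapped, and 3 of its 5 values lay under the offset.

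Of the retinoid X receptors, Rxrg, the form with the most restricted expression in brain, had 2 tested probe sets. AF016387_g_at measured 272 and 271 after fetal alcohol, 209 under the isocaloric diet and 371 and 313 under control diet. AF016387_at measured 37.6 and 60.4 after fetal alcohol, 42.9 under the isocaloric diet and 71.8 and 66.4 under control diet. Both control diet arrays were again above the other 3. Fetal alcohol minus control diet was -0.32 ± 0.23 and -0.44 ± 0.26 (adjusted p = 0.965 and 0.946). Isocaloric minus control diet was -0.68 ± 0.28 at the first (adjusted p = 0.691) and -0.57 ± 0.32 at the second (adjusted p = 0.849). Leaving out fetal alcohol array 1 took the second to -0.17 for fetal alcohol minus control diet, and leaving out array 2 took it to -0.73. The remaining Rxrg probe set, AJ223083_at, was untested and ranged from 7.17 on the isocaloric array to 13.5 on control diet array 1.

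Rxrb (M81766_at), which is expressed in most tissues, measured 159 and 126 after fetal alcohol, 117 under the isocaloric diet and 186 and 164 under control diet. Fetal alcohol array 1 came within 5.12 units of control diet array 2, so the groups were barely apart. The differences from control diet were -0.29 ± 0.24 for fetal alcohol (adjusted p = 0.965) and -0.54 ± 0.29 for the isocaloric diet (adjusted p = 0.829). The single Rxra probe set (L06482_at) measured 18.4 and 12.5 after fetal alcohol, 11.5 under the isocaloric diet and 9.29 and 14.4 under control diet. Its groups overlapped and it was not tested.

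Between isocaloric and control diet, a comparison of the feeding control with 1 array against 2, 9 of 10 tested member probe sets lay below both control diet arrays, beside 37.5% of all tested probe sets, and 1 of 10 above both, beside 38.3%. Of the 10 differences 9 were negative, where 48.6% of all were, and the median was -0.56 beside 0.016 over all. An unadjusted p under 0.05 with lower signal was found for 3 of 10, both Rara probe sets and 1 of Rxrg, beside 5.43% of all, and with higher signal for 0 of 10, beside 1.37%. The adjusted p was under the threshold for 0 of 10, as for 0% of all. The exception to the lower values was Crabp2, with 0.07 ± 0.27. Since the members were chosen with earlier results of these data known, these counts too are a description and not a test. Between fetal alcohol and the isocaloric diet, 1 of 10 lay below the isocaloric array, against 28.4% of all, and 4 of 10 lay above it, against 31.5%, shares near or under the background. There 2 of 10 differences were negative, those of Aldh1a2 and Crabp2, where 50.3% of all were, the median was 0.23 beside -0.003 over all, and 0 of 10 passed, as did 0% of all. An unadjusted p under 0.05 was found there for 0 of 10, beside 1.54% of all with lower and 2.67% with higher signal.

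In 6 of 10 tested probe sets, those of Aldh1a2, Rara, Rxrb and Rxrg, both control diet arrays lay above the other 3 arrays, as did 12.6% of all tested probe sets. This count was made after the values were seen. The spiked controls described above had the same split in 8 of 9 probe sets, and their part in the receptor values was not tested. Neuron markers summed to 6453 and 6694 after fetal alcohol, 5439 under the isocaloric diet and 6847 and 5990 under control diet. In 2 of the 10 tested neuron markers, Neurod1 and Neurod2, the control diet arrays were above the other 3. Over the list, 6 of the 10 had higher and 4 lower signal after fetal alcohol than under control diet, with a median log2 difference of 0.04. Between isocaloric and control diet 2 of the 10 were higher and 8 lower, with a median of -0.33. For Neurod2, named after the values were seen, the order of the 5 arrays was that of Rara U15211_at. The part of neuron content in the Rara values was not tested.

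**Figure D3:**
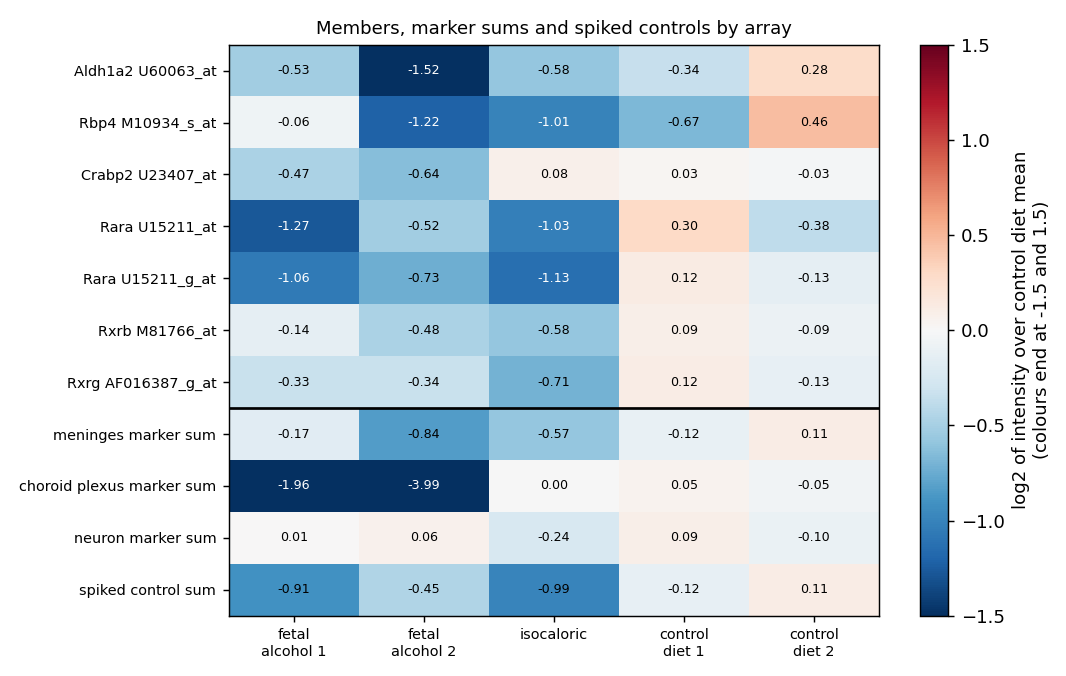
Log2 of the intensity over the control diet mean (colour and printed value) on each array (columns) for 7 member probe sets (above the line) and for the sums of meninges, choroid plexus and neuron markers and of the 9 spiked controls (below it). Rara U15211_g_at and the spiked controls are lower on the fetal alcohol and isocaloric arrays, Crabp2 is lower on the fetal alcohol arrays, and the colours end at -1.5 and 1.5.

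Other genes of the pathway gave no probe set past the threshold. Of 34 other retinoid genes, 15 were on the array and 5 were tested with 1 probe set per gene, the brightest; 3 of the 5 had lower and 2 higher signal after fetal alcohol than under control diet, with a median of -0.12. The largest differences in that list were those of Ttr, given above, and of 3 dim genes that were not tested. Cyp26b1, which degrades retinoic acid, measured 11.4 and 9.69 after fetal alcohol, 20.5 under the isocaloric diet and 42.8 and 17.1 under control diet. Rdh7, a retinol dehydrogenase, measured 11.8 and 6.84 after fetal alcohol, 7.89 under the isocaloric diet and 23.1 and 20.2 under control diet. Adh4, an alcohol dehydrogenase that also oxidises retinol, measured 7.39 and 17.7 after fetal alcohol, 20.7 under the isocaloric diet and 18.4 and 18.6 under control diet. Several of these values lie under the offset of 10.6.

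Nuclear receptors that pair with retinoid X receptors had 11 of 13 genes on the array and 6 tested, 4 with lower and 2 with higher signal on the fetal alcohol arrays and 0 past the threshold. Thra, a thyroid hormone receptor, measured 2040 and 1762 after fetal alcohol, 1368 under the isocaloric diet and 2391 and 2812 under control diet. Its difference from control diet was -0.45 ± 0.20 (limma adjusted p = 0.889) for fetal alcohol and -0.92 ± 0.24 (adjusted p = 0.530) for the isocaloric diet. Of its other probe sets, M31174_g_at gave -0.39 for fetal alcohol and -0.74 for the isocaloric diet, and X12744_at gave -0.01 and -0.36. Vdr, the vitamin D receptor, had -0.34 ± 0.27 for fetal alcohol (adjusted p = 0.965). The untested Nr1h3, an oxysterol receptor, and Nr1h4, a bile acid receptor, had -0.39 and 0.41. Of 9 corepressors and coactivators 2 were on the array: Med1, tested, had -0.20 ± 0.24, and the dim Ncoa1 had -0.92.

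Genes known to respond to retinoic acid had 7 of 21 members on the array and 3 tested, Crabp2, Nrgn and Ret, with 0 past the threshold. Nrgn, neurogranin of dendritic spines, measured 2161 and 1720 after fetal alcohol, 1474 under the isocaloric diet and 1536 and 1546 under control diet. Both fetal alcohol arrays lay above the other 3, as they did in 8.45% of all tested probe sets. The Nrgn difference from control diet was 0.32 ± 0.20 (limma adjusted p = 0.961). Of the 3 tested genes 2 had lower and 1 higher signal after fetal alcohol than under control diet, with a median of -0.24. Crabp2 had -0.48 and Ret -0.24. Among the dim, untested genes, Cyp26b1 had -0.87, while Foxa1, a forkhead factor, had 0.63, Hoxa5 0.17 and Rarb 0.03. Foxa1 measured 7.18 under the isocaloric diet and 4.08 on control diet array 2, both under the offset.

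By the smallest root mean square difference between log2 profiles centred over the 5 arrays, the genes most like Aldh1a2 were Igf2 (0.088), a growth factor that is also on the meninges list used above, Gstm2 (0.12), a glutathione transferase, Srebf1 (0.14), a regulator of lipid synthesis, and Vars1 (0.17), a transfer RNA synthetase. Igf2 measured 582 and 308 after fetal alcohol, 593 under the isocaloric diet and 592 and 861 under control diet. The genes most like Rara U15211_at were Bcl2 (0.11), an inhibitor of cell death, Or10al7 (0.12), annotated as an olfactory receptor, Irs2 (0.13), an adaptor of the insulin receptor, and Dpysl3 (0.16), a protein of growth cones. Bcl2 measured 19.1 and 35.9 after fetal alcohol, 21.6 under the isocaloric diet and 64.2 and 48.0 under control diet. With 5 arrays and 5244 probe sets such likeness is a description.

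**Figure D4:**
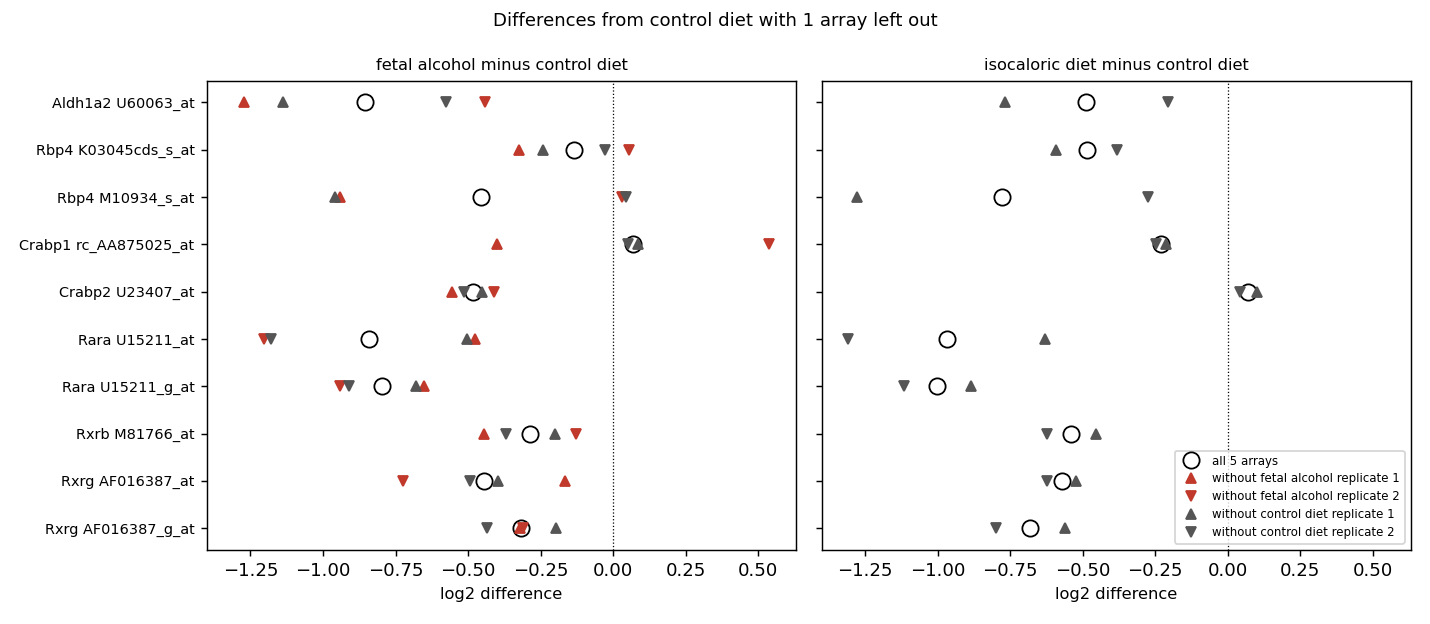
Log2 difference from control diet (horizontal axes) of the 10 tested probe sets for fetal alcohol (left) and isocaloric diet (right); open circles use all 5 arrays and triangles leave out 1 array, as the legend gives. Crabp2 stays between -0.56 and -0.41 for fetal alcohol, while Aldh1a2 spreads from -1.27 to -0.44. Crabp1 and both tested Rbp4 probe sets cross 0 for fetal alcohol.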

How the data were processed

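Each sample is total RNA of rat hippocampus, per the labels, and the table the authors deposited gives its intensity at each probe set. Which software and scaling produced it is not given in the sources used here. Of 8799 probe sets, 59 array controls were left out of the tests. No depth applies to arrays; the number of arrays limits the precision. Since trimmed means of the arrays differed by less than 1.1 times, no further scaling was applied.

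Values became log2(intensity + 10.6); probe sets under the 40th percentile of mean log2 were not tested. One limma model (version 3.58.1, R 4.3.3; lmFit, then eBayes allowing a trend with intensity) covered all 3 groups, with 2 residual and 6.30 prior degrees of freedom, as 2-sided tests adjusted over all 5244 probe sets. The isocaloric array was assumed to vary like the other groups. The fit was tested on simulated data.

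Gene names came from the platform annotation: of 8740 probe sets 7006 had 1 symbol, 308 several and 1426 none, and 6985 symbols were looked up again through the gene identifier in the GRCr8 RefSeq table. Promoter windows are RefSeq's. The members and lists were chosen with earlier results of these data known. All member probe sets were named, with, per list, the up to 4 genes with the largest fetal alcohol minus control diet difference, Ttr, and the 4 genes most like the 2 members with the widest range. Neurod1, Neurod2, Ret, Hoxa5 and Rarb were named after their values were seen. Other marker lists summed, on the fetal alcohol, isocaloric and control diet arrays, to between 5016 and 5589 for astrocytes and radial glia, 296 and 446 for oligodendrocytes, 269 and 479 for microglia and 3615 and 5047 for blood and vessels.

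Alternatives were other normalizations, offsets, filters and variance models, each array left out in turn, and the replicate number as a block. The labels give the numbers no meaning, and deviations of same-numbered arrays correlated at -0.113.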

Additional observations from a re-analysis of the deposited data

How the results depend on the processing

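The count of member probe sets past the threshold was 0 in each of the 3 comparisons with quantile normalization, equal medians, other offsets, a floor, other filters, no variance trend, and each control diet or fetal alcohol array left out. The replicate block was fitted for fetal alcohol minus control diet alone, since the isocaloric diet has 1 array. Over all tested probe sets the count, 0 with all 5 arrays, was 17 without fetal alcohol array 1 and 22 without array 2 in fetal alcohol minus control diet, 22 and 13 in fetal alcohol minus isocaloric diet, and 14 and 11 in isocaloric minus control diet. Equal medians gave 9, 3 and 0 and quantile normalization 1, 3 and 0. The median over tested member probe sets stayed between -0.53 and -0.32, between 0.13 and 0.26, and between -0.68 and -0.50 in these comparisons. With the replicate number as a block the median of the first was -0.45, the blocked fit changed no member's call, and it called 6 of all 5244 probe sets. The crossed pairing called 0 of 10 members and 20 of all probe sets. It was added after the data were seen, because deviations of same-numbered arrays had a weak negative correlation of -0.113.

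Among tested member probe sets 9 values changed sign under alternatives, each with 1 array left out. Against control diet, Rbp4 M10934_s_at ranged from -0.96 to 0.045 (0.030 without fetal alcohol array 2), Rbp4 K03045cds_s_at from -0.32 to 0.053 and Crabp1 from -0.40 to 0.54 with 1 array left out. In fetal alcohol minus isocaloric diet, these ranges were -0.17 to 0.81 for Rbp4 M10934_s_at, -0.17 to 0.77 for Crabp1, -0.78 to 0.045 for Aldh1a2, -0.24 to 0.49 for Rara U15211_at and -0.15 to 0.41 for Rxrg AF016387_at. The cause was not tested. Untested probe sets changed sign too: Rara AJ002940cds_s_at ranged from -0.99 to 0.21 for fetal alcohol minus control diet and Rxra from -0.18 to 0.15 for isocaloric minus control diet. With the filter at the 60th percentile 5 of the 10 probe sets were left. Rxra, the third Rara and the third Rxrg probe set had values at or near the offset, so signal over background limits what can be said of them.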
